A study of Homo sapiens with 2 samples.

Results

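The genes of heat shock and endoplasmic reticulum (ER) chaperones were described in cisplatin-treated cells with and without a knockout of FZR1. The 38 genes were chosen by name, as chaperones of the cytosol (19), the mitochondria (3) and the ER (14) with the transcription factors HSF1 and XBP1, and all 38 were found by their Entrez gene ID among the 23033 genes that had a value. The choice was made with earlier results of these data known, so the counts and shares below are descriptions only. The study sequenced RNA to look for genes of apoptosis that differ after the loss of FZR1, which directs the anaphase-promoting complex to its substrates, in breast cancer cells under cisplatin, a drug that crosslinks DNA. T-47D, a breast cancer line of luminal type, is the cell line given for both libraries, and both cultures received 2 µg/mL cisplatin. Control cells are labelled WT, and FZR1 ko cells were made with a lentiviral guide RNA and Cas9, selected with puromycin and grown from a single-cell clone. Differences of the clone and of the genotype therefore cannot be told apart in any ratio given here. The same holds for transduction, Cas9 and selection unless the control cells also went through them, which their label does not say. The time of treatment is not given in the sources used here, and cells without cisplatin were not analysed here, so no value below says what the drug did. With 1 library for control and 1 for FZR1 ko, no difference has a replicate check, no test was possible and no p-value is given.

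Chaperones hold unfolded proteins and help them to reach or regain their fold. In the cytosol, HSP70 proteins bind short hydrophobic stretches with the help of J proteins, while nucleotide exchange factors such as BAG3 and HSPH1 release them, and HSP90 with its co-chaperones finishes the folding of kinases and steroid receptors. HSF1 drives the inducible members when unfolded proteins build up. In the ER, HSPA5 (BiP), HSP90B1 (GRP94), disulfide isomerases and the lectins calnexin and calreticulin fold secreted and membrane proteins, and the unfolded protein response raises them through ATF6, through XBP1 and through the PERK kinase.

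Levels are given as FPKM, fragment numbers divided by transcript length and by the mapped total, so they can be compared between genes, but the number of reads behind a value and the depth of each library are unknown. A pseudocount of 1 FPKM was added to each value, and differences between the libraries are log2 ratios of FZR1 ko over control on that scale, on which genes of low level show less than their full change. Ratios were kept for the 13554 genes that reached 1 FPKM in either library, and over these genes the median was -0.0048. FZR1 itself had 12.3 FPKM in control and 10.1 in FZR1 ko, so the mRNA level is no check of the knockout. The values went in part against the label T-47D, so the cells may not be of that line, and every level below is that of the cells so labelled. Of 10 luminal marker genes, 6 had less than 1 FPKM in both libraries, among them ESR1 (0.04 and 0.13 FPKM in control and FZR1 ko), GATA3 (0.31 and 0.15 FPKM) and CDH1 (0.69 and 0.62 FPKM). The other 4 were KRT8 (829 and 998 FPKM), KRT18 (552 and 740 FPKM), FOXA1 (5.07 and 4.65 FPKM) and TFF1 (9.80 and 7.52 FPKM). The mesenchymal gene VIM had 315 and 295 FPKM, while the basal keratin KRT5 had 0.19 and 0.08 FPKM. Of the 8 mesenchymal or basal-like markers, the cadherin CDH2 had 2.97 FPKM in control and 15.3 in FZR1 ko, while SNAI2 went the other way, with 7.05 and 3.86 FPKM. Of other cell types, the endothelial cadherin CDH5 had 3.64 and 0.33 FPKM. Of the 4 leukocyte markers, PTPRC had 0.08 and 0.09 FPKM and CD3E was listed at 0 in both libraries, but CD68, which other cells also carry in their lysosomes, had 46.1 and 63.8 FPKM and CD14 had 1.05 and 0.11 FPKM, and the list summed to 47.2 FPKM in control and 64.0 in FZR1 ko. The 3 endothelial markers summed to 3.94 and 0.70 FPKM, nearly all of it CDH5, with PECAM1 at 0.30 and 0.32 FPKM and VWF listed at 0 in control. The 6 fibroblast markers summed to 20.3 and 27.8 FPKM, with LUM at 12.0 and 17.8 FPKM and COL1A2 listed at 0 in both libraries. The mesenchymal or basal-like markers summed to 400 and 384 FPKM, and the 10 luminal ones to 1398 and 1752 FPKM, nearly all of it KRT8 and KRT18. The part of these differences between the cultures in the chaperone values was not tested. In bulk RNA, fewer cells that express a gene and less RNA per cell cannot be told apart.

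Most of the chaperone genes were abundant in both libraries, with exceptions such as CLGN, CRYAB and DNAJB9. The median level of the 38 was 135 FPKM in control and 101 in FZR1 ko, where the median over all genes kept was 9.28 and 9.75 FPKM. Together they made up 1.48% of the FPKM of all genes in control and 1.43% in FZR1 ko. The highest in control was HSP90AB1, the constitutive cytosolic HSP90, with 1015 FPKM in control and 916 in FZR1 ko, and the highest in FZR1 ko was the small heat shock protein HSPB1 (HSP27), with 796 and 945 FPKM. The lowest in control was the testis-enriched calnexin homologue CLGN (calmegin), with 0.09 FPKM, and the lowest in FZR1 ko was CRYAB (αB-crystallin), with 0.55 FPKM in control and 0.43 in FZR1 ko. CRYAB was below 1 FPKM in both libraries and was left out of the ratios given here, so 37 of the 38 genes were compared.

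**Figure D1:**
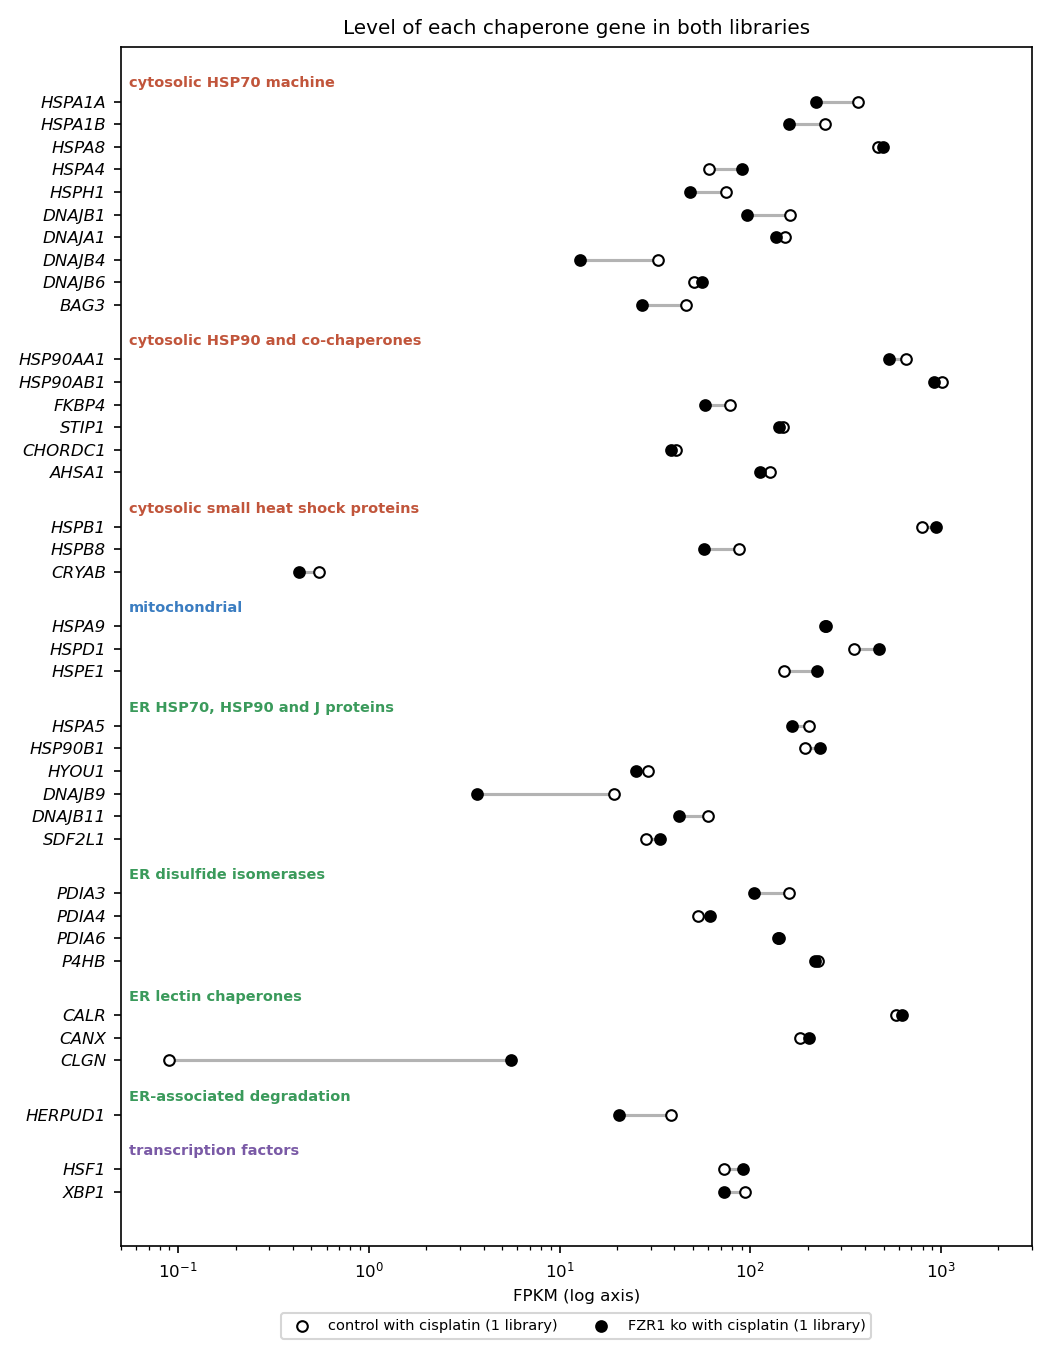
FPKM on a log axis of each of the 38 chaperone genes in control (open circles) and FZR1 ko (filled circles), both with cisplatin and with 1 library each, grouped by compartment and family. Most genes lie between 20 and 1000 FPKM and the circles lie close or overlap, whereas the circles of DNAJB4, DNAJB9 and CLGN lie far apart.

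Of the 37 genes compared, 24 had less and 13 had more FPKM in FZR1 ko than in control, and the median log2 ratio was -0.14. At a threshold of 1.5-fold, 10 genes (27.0%) were lower in FZR1 ko, where 17.6% of all genes kept were, and 1 gene (2.70%) was higher, where 18.0% of all genes kept were. At 2-fold, 2 chaperone genes were lower, DNAJB9 and DNAJB4, and 1 was higher, CLGN, where 6.72% of all genes kept were lower and 6.78% were higher. Because most chaperone genes are highly expressed, the 1.5-fold count was repeated among genes of at least 20 FPKM in a library, a limit chosen after the values were seen. Of the 35 chaperone genes that reached it, 9 were lower and 0 were higher, beside 19.1% and 12.3% of the 4897 genes of that level. With 1 library per condition these are counts past a fold limit only. The members nearest to the limit on the inside were PDIA3, with 1.52-fold, HSPB8, with 1.53-fold, and HSPA1B, with 1.54-fold less FPKM in FZR1 ko, and those nearest on the outside were HSPE1 and HSPA4, each with 1.48-fold more.

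**Figure D2:**
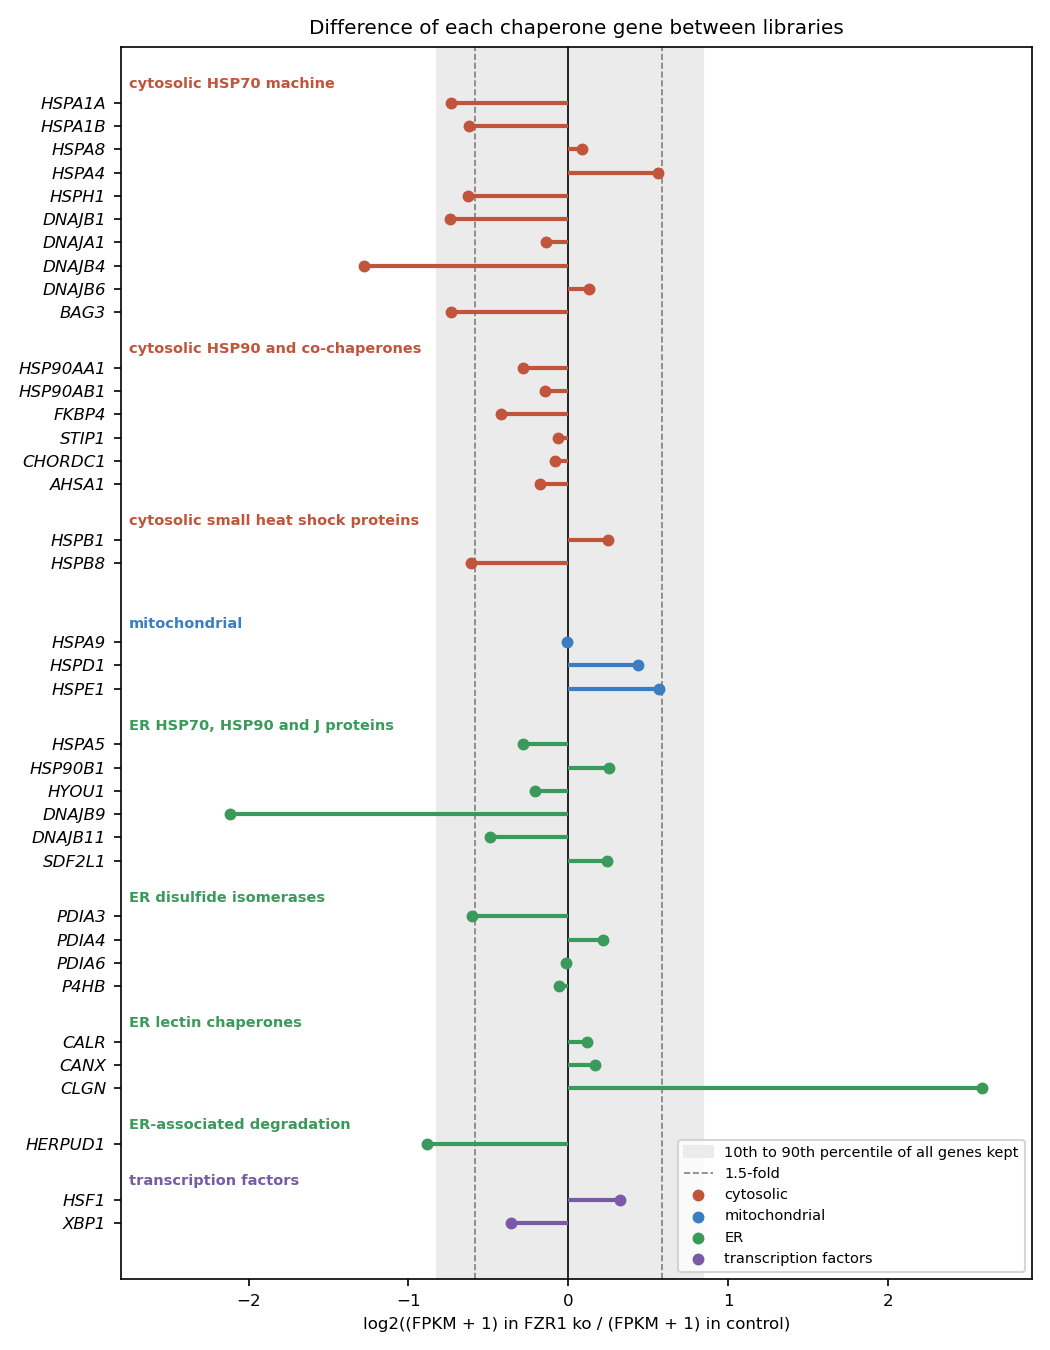
log2 ratio of FZR1 ko over control (pseudocount 1 FPKM) of the 37 chaperone genes of at least 1 FPKM in a library, coloured by compartment, with 1 library per condition. The grey band spans the 10th to the 90th percentile of all genes kept (-0.82 to 0.84) and the dashed lines mark 1.5-fold. 6 of the 10 genes of the HSP70 machine lie left of the lower dashed line, and DNAJB4, DNAJB9, HERPUD1 and CLGN lie outside the grey band.

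In the cytosol, 7 genes were at least 1.5-fold lower in FZR1 ko, and 6 of them belonged to the HSP70 machine. These were 6 of its 10 genes (60.0%), beside 17.6% of all genes kept, or 19.1% of those reaching 20 FPKM in a library. None of the 10 was at least 1.5-fold higher, beside 18.0% and 12.3%. Among the 6 are HSPA1A and HSPA1B, whose reads cannot be separated fully, so they are not independent counts. The median log2 ratio of the machine was -0.62. Its summed level was 1659 FPKM in control and 1344 in FZR1 ko. The genes that passed the limit were the stress-inducible HSP70 genes, the J proteins DNAJB1 and DNAJB4, and the exchange factors HSPH1 and BAG3, whereas the constitutive HSPA8 did not pass it.

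HSPA1A, an inducible HSP70 gene, fell from 366 FPKM in control to 220 in FZR1 ko (log2 ratio -0.73). HSPA1B, its neighbour on the plus strand of chromosome 6, fell from 247 to 160 FPKM (-0.62). Both genes are high in both libraries and lower in FZR1 ko, but they cannot be separated fully. Their main transcripts in the GENCODE 44 annotation were 90.6% identical in a global alignment, and 75.1% of the 50-base windows of the HSPA1A transcript also occurred in HSPA1B, so the division of reads between them rests on how the authors' counting split shared reads. Their sum, which depends less on that split, was 613 FPKM in control and 380 in FZR1 ko (-0.69). The 250 bases before their starts were 93.6% identical as well. A heat shock element is made of GAA units in alternating orientation, and both promoters hold the 8-base form GAANNTTC, shown here in capitals with 20 bases on each side, together with HSPB8, another gene past the limit whose promoter holds the same 8 letters. GAANNTTC occurred in 13 of the 34 chaperone genes with a RefSeq promoter, and in 8.21% of all 27305 genes with one. The log2 ratios of these 13 genes ran from -0.74 to 0.44. The sequences are those of RefSeq on GRCh38.p14, each printed on the strand of its gene, from chr6:31815417-31815464 (plus strand), chr6:31827613-31827660 (plus strand) and chr12:119178823-119178870 (plus strand):
HSPA1A: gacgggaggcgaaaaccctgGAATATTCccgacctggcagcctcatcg
HSPA1B: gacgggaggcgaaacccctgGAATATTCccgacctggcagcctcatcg
HSPB8: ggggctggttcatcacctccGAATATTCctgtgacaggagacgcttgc

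HSPA8 (HSC70), the constitutive HSP70 of the cytosol, had 468 FPKM in control and 497 in FZR1 ko (0.09). The level of HSPA1A was 0.783 times that of HSPA8 in control and 0.443 times in FZR1 ko, so the inducible gene made up a smaller part of the cytosolic HSP70 mRNA in FZR1 ko. HSPA4, an HSP110-type exchange factor, had 61.1 and 90.4 FPKM (0.56), the highest ratio in the cytosol. HSPH1 (HSP105), the heat-inducible relative of HSPA4, fell from 74.9 to 48.2 FPKM (-0.63). HSPA4 and HSPH1 thus lay on opposite sides of 0.

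Among the J proteins, which bring substrates to HSP70 and start its ATP hydrolysis, DNAJB1 (HSP40) fell from 161 FPKM in control to 96.4 in FZR1 ko (-0.74). DNAJB4 fell from 32.6 to 12.85 FPKM (-1.28), the lowest ratio of the cytosolic genes, and it ranked 441 from the lowest among the 13554 genes kept. DNAJA1 had 151 and 137 FPKM (-0.14) and DNAJB6, which holds back aggregation, had 50.9 and 55.6 FPKM (0.13). The level of DNAJB4 was 0.642 times that of DNAJB6 in control and 0.231 times in FZR1 ko. BAG3, which links HSP70 and small heat shock proteins to autophagy, fell from 45.9 to 27.2 FPKM (-0.74).

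Of HSP90 and its co-chaperones, all 6 genes had less FPKM in FZR1 ko, as did 6812 of the 13554 genes kept, and their median log2 ratio was -0.16. None was past 1.5-fold, beside 17.6% lower and 18.0% higher of all genes kept. HSP90AA1, the inducible cytosolic HSP90, had 653 FPKM in control and 536 in FZR1 ko (-0.28), and HSP90AB1 had 1015 and 916 FPKM (-0.15). FKBP4 (FKBP52), a co-chaperone of steroid receptors, had 78.0 and 58.0 FPKM (-0.42), the lowest ratio of the group. STIP1 (HOP), which passes clients from HSP70 to HSP90, had 148 and 142 FPKM (-0.06). AHSA1 (AHA1), which speeds up the HSP90 ATPase, had 127 and 112 FPKM (-0.18), and CHORDC1 had 40.9 and 38.5 FPKM (-0.09). In summed level the group went from 2062 FPKM in control to 1803 in FZR1 ko.

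The small heat shock proteins, which hold unfolded proteins without ATP, went different ways. HSPB1 had 796 FPKM in control and 945 in FZR1 ko (0.25), while HSPB8, which works with BAG3, fell from 87.7 to 57.2 FPKM (-0.61). HSPB8 is the only one of the 10 lower genes that no longer reached 1.5-fold with a pseudocount of 5 FPKM (-0.58).

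The 8-base heat shock elements TTCNNGAA and GAANNTTC were searched in the RefSeq promoters (250 bases before to 50 after each start, on GRCh38.p14). Each of these motifs reads the same on both strands, and they overlap each other in longer elements. Promoters were given for 34 of the 38 genes, 49 promoters in all, and HSF1, CRYAB, FKBP4 and PDIA3 were not searched. At least one of both motifs was found in 13 of the 17 cytosolic genes with a promoter, 2 of 3 mitochondrial genes and 1 of 13 ER genes, and a gene counted if any of its listed promoters matched. Counted in the same way, 16.2% of all 27305 genes of the table held one, and 13.5% of its 35116 promoters did. In the cytosol HSPA8, DNAJA1, DNAJB6, HSP90AA1, HSP90AB1 and CHORDC1, and in the mitochondria HSPD1, held the 3-unit heat shock element, in which 3 GAA units alternate with 2 bases between them, and 0.608% of all genes of the table did (0.490% of all promoters). These 7 genes had log2 ratios from -0.28 to 0.44 with a median of -0.09, and none of them reached 1.5-fold, as 8727 of the 13554 genes kept did not, while the other 27 genes compared that had a promoter had a median of -0.18. Within the cytosol the median was -0.11 over the 6 genes with the 3-unit element and -0.62 over the 11 without it. For the 8-base motifs the medians over all members were -0.11 over 16 genes with a match and -0.12 over 18 without, and the cytosolic ones were -0.15 over 13 with and -0.40 over 4 without. For GAANNTTC alone the median over all members was lower with a match (-0.14 over 13 genes) than without (-0.06 over 21), and for TTCNNGAA alone it was higher with a match (-0.06 over 11) than without (-0.21 over 23). Within the cytosol it was higher with a match for each motif. The values were -0.15 over 11 genes with GAANNTTC and -0.40 over 6 without, and -0.11 over 8 with TTCNNGAA and -0.62 over 9 without. A match gives only the letters of the window and does not show that HSF1 binds there. Only exact letters were searched, so a gene counted as without an element can still hold an imperfect one. Shown here are the 80 bases before the starts of HSPA8 and CHORDC1, whose levels were close in both libraries, with both 8-base motifs in capitals, from chr11:123062137-123062216 (minus strand) and chr11:90223050-90223129 (minus strand):
HSPA8: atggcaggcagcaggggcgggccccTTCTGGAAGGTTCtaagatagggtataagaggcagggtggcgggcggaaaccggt
CHORDC1: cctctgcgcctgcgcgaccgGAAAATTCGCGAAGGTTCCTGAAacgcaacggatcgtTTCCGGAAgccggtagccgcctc

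The mitochondrial chaperones were the compartment with the highest median log2 ratio, 0.44 over 3 genes. HSPD1 (HSP60), the chamber that folds imported proteins, had 349 FPKM in control and 473 in FZR1 ko (0.44). HSPE1 (HSP10), its lid, had 151 and 223 FPKM (0.57). HSPA9 (mortalin), the HSP70 of the matrix and part of the import motor, had 248 and 247 FPKM (-0.0076). None reached 1.5-fold, beside 17.6% lower and 18.0% higher of all genes kept. HSPD1 and HSPE1 lie head to head on chromosome 2 with their starts 105 bases apart, and the ratio of HSPD1 to HSPE1 was 2.32 in control and 2.12 in FZR1 ko. The 104 bases between the starts, on which neither 8-base motif lies (the matches of HSPD1 belong to another of its listed starts), are shown on the plus strand from chr2:197500275-197500378:
HSPD1 to HSPE1: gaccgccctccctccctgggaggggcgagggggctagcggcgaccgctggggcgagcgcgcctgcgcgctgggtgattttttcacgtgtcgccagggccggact

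Both values are less certain than most, since 48.2% of the 50-base windows of HSPE1 and 27.1% of those of HSPD1 also occur in transcripts of other genes, 10 genes for each. HSPE1-MOB4, a readthrough gene, holds 28.3% of the windows of HSPE1, and HSPD1P1, a pseudogene, holds 18.4% of those of HSPD1. Over all 38 genes, 18 had no such window and 12 had at least 10% of their windows in another gene, and HSPA1A and HSPA1B were the only genes above 50%.

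In the ER, the median log2 ratio was -0.04 over 14 genes, with 8 lower and 6 higher in FZR1 ko. The summed level was 1912 FPKM in control and 1883 in FZR1 ko. At 1.5-fold, 3 genes were lower (21.4%, beside 17.6% of all genes kept), DNAJB9, HERPUD1 and PDIA3, and 1 was higher (7.14%, beside 18.0%), CLGN. The share of lower genes was near that of all genes. The other 10 genes lay within 1.5-fold.

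Among the HSP70, HSP90 and J proteins of the ER, HSPA5 (BiP), the ER HSP70 and the main read-out of the unfolded protein response, had 203 FPKM in control and 166 in FZR1 ko (-0.28). HSP90B1 (GRP94), the ER HSP90, had 194 and 231 FPKM (0.25). Their levels were 397 FPKM when summed in FZR1 ko and 396 FPKM in control, and the ratio of HSPA5 to HSP90B1 was 1.05 in control and 0.721 in FZR1 ko. HYOU1 (GRP170), an exchange factor of HSPA5, had 29.1 and 25.0 FPKM (-0.21). SDF2L1, which works with the ER J proteins, had 28.3 and 33.7 FPKM (0.24). DNAJB11 (ERdj3), a J protein that binds substrates directly, had 59.7 and 42.3 FPKM (-0.49), and 25.3% of its windows occur in another gene model.

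DNAJB9 (ERdj4), a J protein of HSPA5 that restrains the sensor IRE1 and helps misfolded proteins to leave the ER, fell from 19.3 FPKM in control to 3.68 in FZR1 ko (-2.12, or -1.49 with a pseudocount of 5 FPKM). This was the lowest ratio of all 37 genes, and it ranked 64 from the lowest among the 13554 genes kept. None of its windows occurs in another gene. DNAJB9 was 0.323 times as high as DNAJB11 in control and 0.0870 times in FZR1 ko. HERPUD1, a membrane protein of the degradation of ER proteins and a target of several branches of the unfolded protein response, fell from 38.5 to 20.4 FPKM (-0.88).

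Of the disulfide isomerases, which form and rearrange disulfide bonds, PDIA3 (ERp57), the partner of the lectin chaperones, fell from 160 FPKM in control to 105 in FZR1 ko (-0.60), close to the limit. PDIA4 (ERp72) had 52.9 and 61.7 FPKM (0.22), PDIA6 had 142 and 141 FPKM (-0.02) and P4HB (PDI) had 227 and 218 FPKM (-0.06). A pseudogene, PDIA3P1, holds 17.9% of the windows of PDIA3 and had 1.62 and 2.22 FPKM, a small part of the level of PDIA3.

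The lectin chaperones, which bind monoglucosylated glycoproteins, all had more FPKM in FZR1 ko, as did 6726 of the 13554 genes kept, and 1 of the 3 was past 1.5-fold, beside 18.0% higher of all genes kept. CALR (calreticulin) had 578 FPKM in control and 627 in FZR1 ko (0.12), and CANX (calnexin) had 182 and 203 FPKM (0.16). CLGN rose from 0.09 to 5.54 FPKM (2.58). It was kept only through its level in FZR1 ko, and its log2 ratio was 4.89 with a pseudocount of 0.1 FPKM and 1.05 with 5 FPKM. CLGN was at 0.0272 times the level of CANX in FZR1 ko, so it stayed a minor lectin chaperone in both libraries. The fold of CLGN depends on a control value that can rest on few reads.

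**Figure D3:**
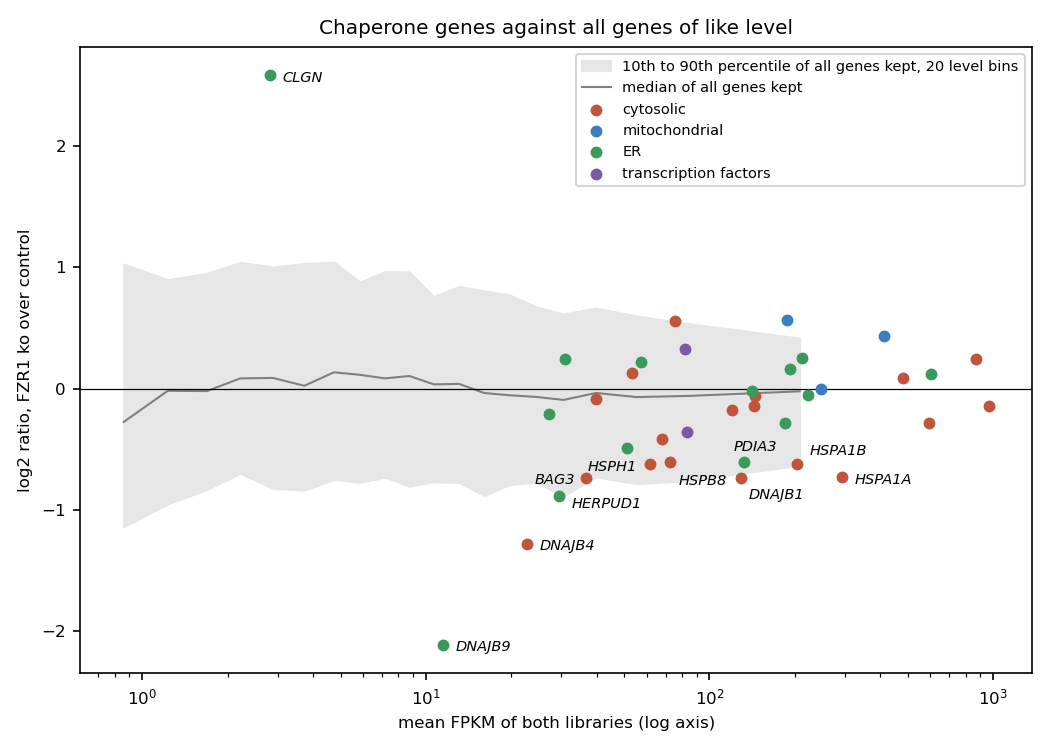
log2 ratio of FZR1 ko over control against the mean FPKM of both libraries (log axis) for the 37 chaperone genes, coloured by compartment, with the genes at least 1.5-fold apart named. The grey band and line give the 10th to 90th percentile and the median of all genes kept in 20 groups of like level, and both end at the middle of the highest group. DNAJB9, DNAJB4 and CLGN lie far outside the band, whereas HSPB8, HSPH1 and PDIA3 lie inside it.

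The promoters of the ER genes were searched for the ER stress element, CCAAT and CCACG with 9 bases between them, and for the ER stress element II, ATTGG and CCACG with 1 base between them, on both strands. The first was found in HSPA5, HSP90B1, PDIA6, CALR and CANX and in XBP1, and the second in HYOU1, SDF2L1 and HERPUD1. This is 8 of the 13 ER genes with a promoter, and none of the 17 cytosolic or 3 mitochondrial ones, while 0.161% of all genes of the table held one of both (0.131% of all promoters). The log2 ratios of the 8 ER genes ran from -0.88 to 0.25 with a median of 0.05, and the 5 ER genes without an element had a median of -0.06. Taken singly, the elements went opposite ways. The median was 0.12 over 5 ER genes with the ER stress element and -0.13 over 8 without. For the ER stress element II it was -0.21 over 3 with and 0.05 over 10 without. Of the 8, only HERPUD1 was past 1.5-fold, beside 17.6% lower and 18.0% higher of all genes kept. The motif TGACGTG, also searched on both strands, was found in HSP90AB1 and HYOU1 and in 2.40% of all genes of the table (1.97% of all promoters). The elements are shown in capitals on the strand of each gene for HSPA5, HSP90B1, XBP1, HERPUD1 and SDF2L1, from chr9:125241371-125241429 (minus strand), chr12:103930200-103930349 (plus strand), chr22:28800583-28800641 (minus strand), chr16:56932005-56932055 (plus strand) and chr22:21642094-21642144 (plus strand), since these promoters hold like elements and their genes had different log2 ratios:
HSPA5: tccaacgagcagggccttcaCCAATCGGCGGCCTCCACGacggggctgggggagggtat
HSP90B1: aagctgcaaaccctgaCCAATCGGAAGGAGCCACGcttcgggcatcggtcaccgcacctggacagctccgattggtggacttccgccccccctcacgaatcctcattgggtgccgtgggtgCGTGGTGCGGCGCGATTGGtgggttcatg
XBP1: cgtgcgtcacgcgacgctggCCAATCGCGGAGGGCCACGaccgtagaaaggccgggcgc
HERPUD1: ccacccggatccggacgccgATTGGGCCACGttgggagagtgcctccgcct
SDF2L1: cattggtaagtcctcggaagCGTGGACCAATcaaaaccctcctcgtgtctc

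For comparison, the 100 bases before the starts of DNAJB9 and CLGN, the genes with the lowest and the highest ratio, are shown from chr7:108569774-108569873 (plus strand) and chr4:140427649-140427748 (minus strand), and neither 300-base promoter holds an exact match to any of the motifs searched:
DNAJB9: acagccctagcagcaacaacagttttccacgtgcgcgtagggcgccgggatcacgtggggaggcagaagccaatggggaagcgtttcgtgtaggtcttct
CLGN: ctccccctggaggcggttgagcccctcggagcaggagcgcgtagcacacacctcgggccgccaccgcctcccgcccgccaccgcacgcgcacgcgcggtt

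The transcription factors lay on opposite sides of 0, and neither reached 1.5-fold. HSF1, the heat shock factor, had 73.0 FPKM in control and 91.5 in FZR1 ko (0.32). XBP1, which becomes an active factor when IRE1 splices its mRNA, had 93.4 and 72.6 FPKM (-0.36). FPKM per gene does not separate the spliced from the unspliced XBP1 mRNA, and HSF1 is controlled mainly at the protein level, so these levels do not measure the activity of either factor.

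Other genes of the same pathways were described from 10 lists with 99 genes, of which 93 were kept. Of these, 60 were lower and 33 higher in FZR1 ko, with a median log2 ratio of -0.19, and 20 (21.5%) were at least 1.5-fold lower and 10 (10.8%) at least 1.5-fold higher, beside 17.6% and 18.0% of all genes kept. The share of lower genes was thus near that of all genes, and the counts of the single lists are to be read against the same shares. The 8 subunits of the cytosolic chaperonin CCT had a median of -0.21 with none past 1.5-fold, and the 6 prefoldin subunits had one of -0.19 with none at least 1.5-fold lower and 1 higher (16.7%), PFDN6, a name given after its values were seen, with 65.7 FPKM in control and 113 in FZR1 ko (0.77). The list of other HSP70 genes and their partners had 16 genes kept with a median of -0.32, 4 of them (25.0%) at least 1.5-fold lower and none higher. It was drawn up as a cytosolic list but holds HSPA13, an HSP70 of the microsomes, and without it 3 of 15 genes were at least 1.5-fold lower (beside 17.6% of all genes kept) and the median was -0.30. HSPA13 fell from 24.0 FPKM in control to 10.6 in FZR1 ko (-1.11). The other HSP90 co-chaperones had a median of 0.02 over 8 genes, with 1 at least 1.5-fold lower and 2 higher (12.5% and 25.0%). Of the higher ones, FKBP5 (FKBP51), a glucocorticoid-induced antagonist of FKBP4, rose from 7.58 to 16.7 FPKM (1.05).

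Of the 5 other small heat shock proteins 4 had a value and 2 were kept, with a median of -0.20. Among the other heat shock factors and their regulators, HSF2 fell from 12.5 to 6.72 FPKM (-0.81) and HSBP1, which binds HSF1, from 148 to 76.7 FPKM (-0.94), while HSF4 had 12.7 and 16.4 FPKM (0.34). These genes, and ATF4 among the genes named next, were named after their values were seen. Of the other mitochondrial folding and proteolysis genes, 3 of 8 were at least 1.5-fold lower and 1 was higher, with a median of 0.02, beside 17.6% lower and 18.0% higher of all genes kept. GRPEL2, an exchange factor of HSPA9, fell from 19.5 to 7.52 FPKM (-1.27).

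The other ER folding genes had a median of -0.09 over 15 genes, with 2 at least 1.5-fold lower, beside 17.6% of all genes kept, and 3 higher, beside 18.0%, both near the shares of all genes. In ER-associated degradation, 5 of 15 genes (33.3%) were at least 1.5-fold lower and 1 (6.67%) was higher, with a median of -0.21. The sensors of the unfolded protein response and the PERK branch had a median of -0.15 over 12 genes, with 2 at least 1.5-fold lower and 2 higher (16.7% each), near the shares of all genes. Among them CHAC1, a glutathione-degrading target of the PERK branch, fell from 12.1 to 4.13 FPKM (-1.35), while ATF4, the factor of that branch, had 159 and 148 FPKM (-0.11). The genes of each ER list thus stood on both sides of 0.

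**Figure D4:**
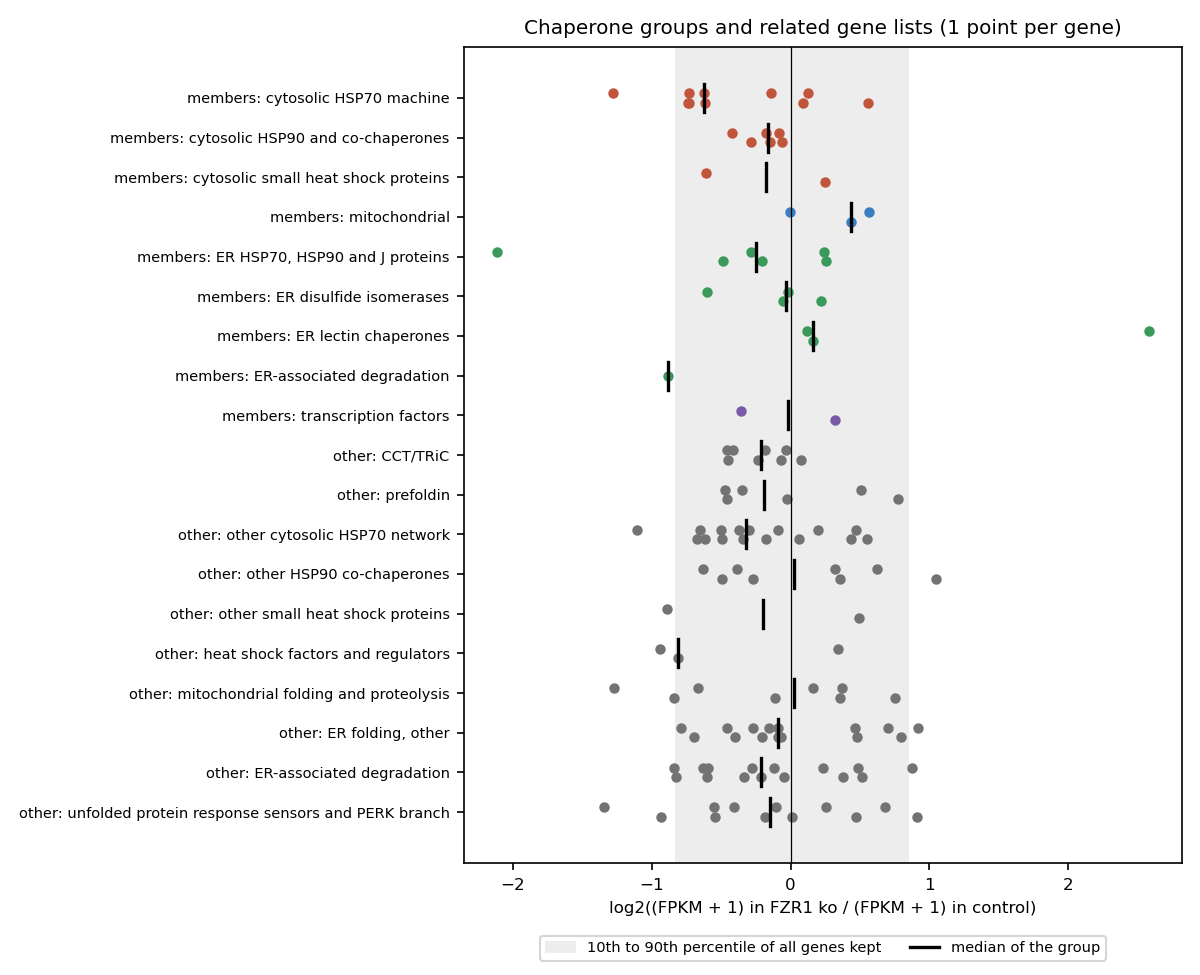
log2 ratio of FZR1 ko over control for the chaperone genes by group (coloured) and for 10 lists of other genes of the same pathways (grey), 1 point per gene of at least 1 FPKM in a library, with a bar at the median of each group and a band for the 10th to 90th percentile of all genes kept. The HSP70 machine has a median of -0.62 and the mitochondrial chaperones one of 0.44, and the medians of the 10 grey lists lie between -0.81 and 0.02.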

How the data were processed

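Total RNA of both libraries was sequenced on the BGISEQ-500 platform. Per the labels and the study's methods, the authors aligned reads with Bowtie2 (version 2.2.5 in the submitters' processing notes, where Trimmomatic 0.36 and HISAT2 2.1.0 are also named) and quantified them with RSEM on hg38. The authors deposited FPKM per Entrez gene ID, rounded to 2 decimals. Of the value columns, 1 is named for cisplatin with a guide against FZR1 and 1 for cisplatin alone; the latter was taken as control because its name holds no guide, and the direction of every ratio rests on this reading. Of 24663 rows, 1630 had no value. Symbols came from the RefSeq table of GRCh38.p14 and matched 22925 of 23033 genes. The depth and the annotation version are not given in the sources used here.

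Log2 ratios used a pseudocount of 1 FPKM and genes of at least 1 FPKM in at least 1 library. With 1 library per group there was no test, so fold limits of 1.5 and 2 were counted beside their share among all genes kept. The code was tested on simulated data. The members and lists were chosen with earlier results of these data known. All members were named, and of the related lists the genes at least 2-fold apart; ATF4, HSF4, HSF2, HSBP1 and PFDN6 were named outside this rule, after their values were seen. Alternatives were pseudocounts of 0.1 and 5 FPKM, other filters, centring, rescaling and the sum of HSPA1A and HSPA1B. Shared sequence was counted in 50-base windows of the canonical GENCODE 44 transcripts, not the authors' annotation. Protein sequences were not used here. Values were computed with pandas 2.3.3 and numpy 2.4.6 in Python 3.11.15, sequences were aligned with Biopython 1.88, and plots were drawn with matplotlib 3.10.9.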

Additional observations from a re-analysis of the deposited data

How the results depend on the processing

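No paired analysis was possible because control and FZR1 ko are represented by a single library each, with no test, and for the same reason no replicate could be left out. The count of 10 chaperone genes at least 1.5-fold lower was 10 or 9 under the other pseudocounts, filters, centring and rescaling, and 2 with a 2-fold limit. The count of 1 gene at least 1.5-fold higher became 0 with at least 1 FPKM in both libraries and 0 with at least 20 FPKM in a library, since CLGN is then left out. The last limit was chosen after the data were seen. The median of the cytosolic genes ranged from -0.23 to -0.18 (the latter without a filter, which takes CRYAB in, or with HSPA1A and HSPA1B summed), that of the mitochondrial genes from 0.43 to 0.44 and that of the ER genes from -0.06 to -0.03. No gene compared changed direction. With a pseudocount of 5 FPKM the log2 ratio of CLGN was 1.05 and that of DNAJB9 -1.49, and with 0.1 FPKM that of CLGN was 4.89. The unknown depth limits these low genes most.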
